A study of Mus musculus with 6 samples.

Results

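The amino acid response and the unfolded protein response were followed through 42 genes of 29590 measured in mouse bone marrow-derived mast cells. They were chosen by their known place in these pathways, though with earlier results of these data known. They comprise 33 ATF4-type genes and 9 genes of the endoplasmic reticulum. The ATF4-type genes are 7 stress regulators, 10 amino acid and one-carbon enzymes, 9 amino acid transporters and 7 aminoacyl-tRNA synthetases. Each gene was read from its brightest probe, and all 42 were well above background on all 6 arrays. The series holds 6 single-colour arrays, 1 for each group, and each RNA was a pool of 3 samples, so no value has a replicate and no test between groups was possible. Differences are described by their size, with 2-fold taken as higher or lower.

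Mast cells had been grown from bone marrow in interleukin-3 at 10 ng/ml. The groups on fibroblasts labelled wild-type Swiss 3T3 were Pla2g3-/- mast cells and Pla2g3+/+ mast cells. Wild-type mast cells were grown on Lpar1-/- or on Lpar1+/+ Swiss 3T3 fibroblasts. The remaining groups were Pla2g3-/- and Pla2g3+/+ mast cells without fibroblasts. Lpar1 is a receptor gene whose ligand is lysophosphatidic acid, and the product of Pla2g3 is a phospholipase that cells secrete. The cocultures lasted 4 days in stem cell factor at 100 ng/ml. The Lpar1-/- fibroblasts came from single-cell cloning after CRISPR/Cas9 editing, so that genotype can carry the traits of a clone. The animals, the nature of the Pla2g3 allele, and whether the cells without fibroblasts received stem cell factor are not stated in the labels.

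Levels are log2 of the processed intensity over the 75th percentile of that array, which was 1230 to 1520 in scanner units. The brightest Pla2g3 probe went against its label, with 0.51 in Pla2g3-/- labelled cells alone against -6.31 in Pla2g3+/+ cells alone, and -1.84 against -7.31 in the corresponding cocultures. That genotype is therefore written as labelled, and the direction of every difference between the genotypes depends on the label. The dimmer Pla2g3 probes went the same way, with -4.08 and -2.67 in Pla2g3-/- labelled cells alone against -9.09 and -8.47 in Pla2g3+/+ cells alone. In coculture they read -6.60 and -3.51 against -8.11 and -9.09. They were well above background on 4 and 2 of the 6 arrays. The brightest probe gave -6.58 in the Lpar1+/+ coculture and -4.85 in the Lpar1-/- coculture. Where the deletion lies is not stated in the labels, so the probes may lie outside it and then do not check it. Why the probes read higher under the Pla2g3-/- label was not tested. The Lpar1 probe was not lower with Lpar1-/- fibroblasts, at -3.89 against -4.14 with Lpar1+/+ fibroblasts, and it read -2.85 in Pla2g3-/- labelled and -2.84 in Pla2g3+/+ mast cells alone. The fibroblast genotype thus also rests on its label, which the arrays did not check, and Lpar1-/- is written here as the label's name. All 8 mast cell markers were well above background on every array, with a summed linear signal of 444 to 556 times the 75th percentile. By gene, 7 of the 8 were within 2-fold for the Pla2g3-/- label in coculture and for Lpar1-/- fibroblasts. Hdc was lower in both, with log2 differences of -2.29 and -3.28, and was 1.92 higher with coculture of Pla2g3+/+ cells. The cocultures lay on 1 slide and the arrays without fibroblasts on another, so coculture and slide cannot be told apart, whereas both genotype comparisons lay within a slide. The pair of wild-type cocultures, Pla2g3+/+ cells on wild-type and wild-type cells on Lpar1+/+ fibroblasts, gave the only measure of spread between arrays. The labels do not call them replicates, so their spread cannot be told apart from differences in mast cells or fibroblast line. Their log2 differences had a standard deviation of 0.26 over 21930 genes, and 95% lay within 0.54. Among the 42 genes the standard deviation was 0.22, and the largest gap was 0.83, for Atf3. In that pair 0 of the 42 were higher and 0 lower in the Pla2g3+/+ coculture, beside 0.166% higher and 0.803% lower of all genes compared. Yet 38 of the 42 lay below 0, with a median of -0.21, beside 46.9% and a median of 0.0053 for all genes compared, so most of the 42 also lay on one side of 0 between the wild-type cocultures.

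Cells short of an amino acid, or with misfolded protein in the endoplasmic reticulum, phosphorylate the initiation factor eIF2alpha. General translation then slows while the messenger RNA of the transcription factor ATF4 is translated more, and ATF4 with its partners turns on genes for amino acid synthesis, uptake and tRNA charging. Misfolded protein also acts through ATF6 and through IRE1, which splices Xbp1 messenger RNA, and these branches raise chaperones and folding enzymes. Mast cells make large stores of secretory granule protein through this compartment.

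The promoters show how the ATF4-type and endoplasmic reticulum genes differ in sequence. RefSeq windows from 250 bases before to 50 bases after the annotated start (GRCm38.p6) were found for 36 of the 42 genes. They were searched on both strands for the core of the amino acid response element, TGATGNAA, to which ATF4 heterodimers bind, for the core of the unfolded protein response element, TGACGTGG, and for the endoplasmic reticulum stress response element, which is CCAAT, 9 bases and CCACG. No matches of different motifs overlapped in these 36 genes. The amino acid response core was found in 9 of 27 ATF4-type genes (Aars, Asns, Atf3, Chac1, Gars, Pycr1, Slc1a4, Slc7a11 and Trib3) and in 1 of 9 endoplasmic reticulum genes (Herpud1), beside 4.51% of 27025 genes with a window and 3.97% of all windows. The endoplasmic reticulum stress response element was found in 3 of 9 endoplasmic reticulum genes (Calr, Hsp90b1 and Hspa5) and 0 of 27 ATF4-type genes, beside 0.137% of genes and 0.119% of windows. The unfolded protein response core was in none of the 36 windows, beside 0.714% of genes and 0.676% of windows. A match is a description of these letters and does not show that a factor binds. The 250 bases before the start are printed for 6 of the genes, in the direction of transcription, with matches in capitals. Atf3 (chr1:191183334-191183583, minus strand) and Chac1 (chr2:119350992-119351241, plus strand) are stress regulators with the amino acid response core on the reverse strand, and Asns (chr6:7693210-7693459, minus strand) carries it on the forward strand close to the start. Ddit4 (chr10:59951771-59952020, minus strand), the stress regulator past 2-fold higher in both genotype comparisons, had no match. Most ATF4-type genes with a window also had none, among them Phgdh, Psat1 and Slc7a1, which were lower in both comparisons. Slc1a4 has the core and was within 2-fold in both, so a match did not sort the genes by direction. Hspa5 (chr2:34771840-34772089, plus strand) and Hsp90b1 (chr10:86705445-86705694, minus strand) are chaperone genes with 1 and 2 copies of the endoplasmic reticulum stress response element.
Atf3: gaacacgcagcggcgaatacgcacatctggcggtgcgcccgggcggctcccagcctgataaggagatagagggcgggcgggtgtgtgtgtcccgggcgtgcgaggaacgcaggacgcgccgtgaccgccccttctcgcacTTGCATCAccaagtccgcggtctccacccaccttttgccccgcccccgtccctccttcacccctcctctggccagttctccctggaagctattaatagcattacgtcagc
Chac1: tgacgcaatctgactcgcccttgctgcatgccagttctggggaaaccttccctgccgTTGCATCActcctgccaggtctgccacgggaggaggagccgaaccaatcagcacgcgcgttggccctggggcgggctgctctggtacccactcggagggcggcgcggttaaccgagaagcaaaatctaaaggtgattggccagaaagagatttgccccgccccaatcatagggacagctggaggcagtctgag
Asns: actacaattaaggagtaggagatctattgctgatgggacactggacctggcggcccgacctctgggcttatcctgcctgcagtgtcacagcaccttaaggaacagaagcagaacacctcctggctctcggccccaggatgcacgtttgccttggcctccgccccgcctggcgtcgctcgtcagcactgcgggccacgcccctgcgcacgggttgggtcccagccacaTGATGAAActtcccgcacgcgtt
Ddit4: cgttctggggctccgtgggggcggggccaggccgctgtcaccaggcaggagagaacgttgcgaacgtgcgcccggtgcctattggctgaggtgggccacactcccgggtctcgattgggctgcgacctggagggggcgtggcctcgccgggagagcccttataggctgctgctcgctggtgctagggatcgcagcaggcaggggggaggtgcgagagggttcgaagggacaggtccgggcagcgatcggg
Hspa5: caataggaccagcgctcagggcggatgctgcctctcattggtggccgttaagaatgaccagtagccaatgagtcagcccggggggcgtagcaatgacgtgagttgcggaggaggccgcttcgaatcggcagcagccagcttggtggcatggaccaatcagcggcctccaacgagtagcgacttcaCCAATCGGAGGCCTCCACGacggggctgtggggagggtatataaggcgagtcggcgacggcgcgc
Hsp90b1: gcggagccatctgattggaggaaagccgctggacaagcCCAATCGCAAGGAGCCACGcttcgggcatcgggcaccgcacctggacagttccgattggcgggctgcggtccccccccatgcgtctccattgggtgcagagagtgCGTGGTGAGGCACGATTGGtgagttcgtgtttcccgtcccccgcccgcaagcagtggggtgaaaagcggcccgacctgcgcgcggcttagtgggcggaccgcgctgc

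Across the arrays, most of the 42 genes were lowest in the Pla2g3-/- labelled coculture. That array gave the lowest level of 31 of the 42, and the array with Lpar1-/- fibroblasts that of 7, whereas 12.7% and 21.7% of the 19746 genes above background everywhere had their lowest level there. The highest level of 20 of the 42 lay in Pla2g3+/+ cells without fibroblasts, beside 12.9% of the 19746 genes, and all 20 were ATF4-type genes. Of the 9 endoplasmic reticulum genes, 8 were lowest in the Pla2g3-/- labelled coculture and 1, Hsp90b1, with Lpar1-/- fibroblasts. In bulk RNA, fewer cells of a type and less RNA per cell cannot be told apart.

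**Figure D1:**
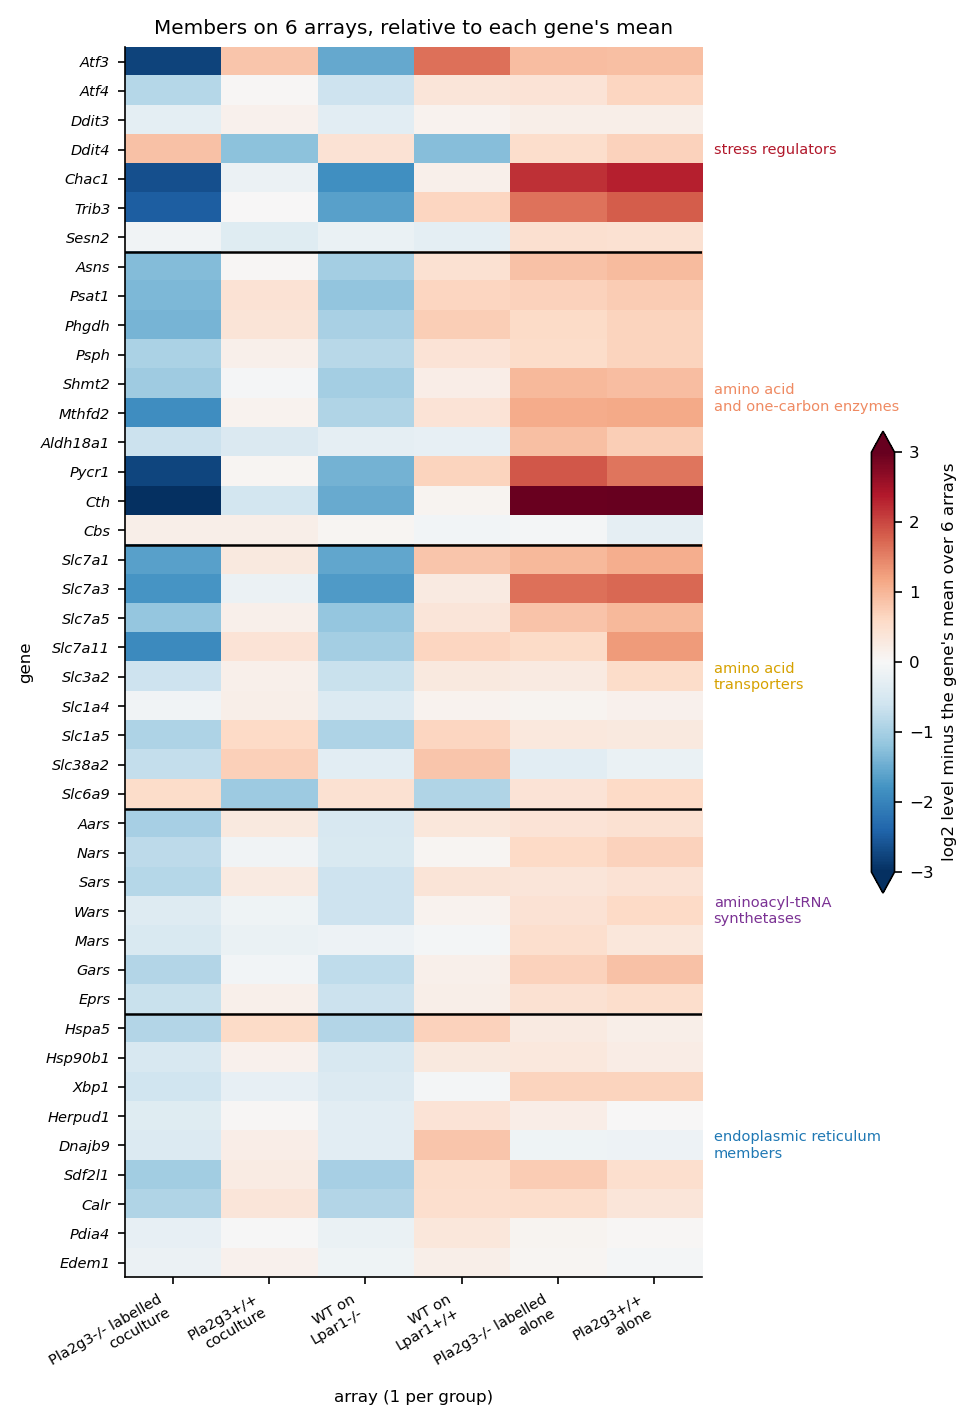
Heat map of the 42 genes (rows, grouped by role) on the 6 arrays (columns), coloured by the log2 level minus the gene's mean over the 6 arrays, with the scale ending at 3 log2 units in each direction. Blue fills the columns of the Pla2g3-/- labelled coculture and of the Lpar1-/- fibroblasts in all 5 role groups, except for Ddit4, Slc6a9 and, faintly, Cbs, which lie above their means in both columns.

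The Pla2g3 comparison in coculture asks whether the phospholipase of the mast cell bears on its state on fibroblasts. Of the 33 ATF4-type genes, 19 were lower and 2 higher in the Pla2g3-/- labelled coculture, with a median log2 difference of -1.13. Of all genes compared, 10.4% were lower and 9.10% higher, with a median of -0.08. Of the 9 endoplasmic reticulum genes, 3 were lower and 0 higher, with a median of -0.60. The 2 higher genes were Ddit4 and Slc6a9.

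The Lpar1 comparison asks the same of the fibroblast receptor, with wild-type mast cells on either fibroblast. On Lpar1-/- fibroblasts 18 of the 33 ATF4-type genes were lower and 2 higher, with a median of -1.17, and again the 2 higher were Ddit4 and Slc6a9. Of all genes compared, 8.84% were lower and 11.3% higher, with a median of -0.05. Of the 9 endoplasmic reticulum genes, 4 were lower and 0 higher, with a median of -0.76. Swapping the wild-type coculture array moved the count of lower ATF4-type genes to 21 in the Pla2g3 comparison and 14 in the Lpar1 comparison.

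Coculture itself, measured against the same cells without fibroblasts, had a smaller share of these genes lower in Pla2g3+/+ cells. There 9 of 33 ATF4-type genes were lower and 0 higher (median -0.78), and 0 of 9 endoplasmic reticulum genes were lower or higher (median 0.01), whereas 7.52% of all genes were lower and 13.0% higher (median 0.13). In Pla2g3-/- labelled cells 23 of 33 ATF4-type genes were lower and 0 higher (median -1.50), and 4 of 9 endoplasmic reticulum genes were lower and 0 higher (median -0.79), beside 7.30% of all genes lower and 11.4% higher (median 0.12). Subtracting the Pla2g3+/+ coculture effect from the Pla2g3-/- labelled one, which cancels the slide, left 18 ATF4-type genes lower and 2 higher (median -1.10) and 3 endoplasmic reticulum genes lower (median -0.63), beside 10.4% of all genes lower and 9.56% higher. Without fibroblasts 0 of the 42 genes were lower and 0 higher in Pla2g3-/- labelled cells. Of all genes compared 1.58% were lower and 0.423% higher, so these counts lie near the shares and are not a result about the 42. The arrays without fibroblasts were not alike in other genes. Of 10 neutrophil and eosinophil markers, 9 were lower and 0 higher in Pla2g3-/- labelled cells (median -4.34). These comparisons share arrays, so their counts are not independent of each other.

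**Figure D2:**
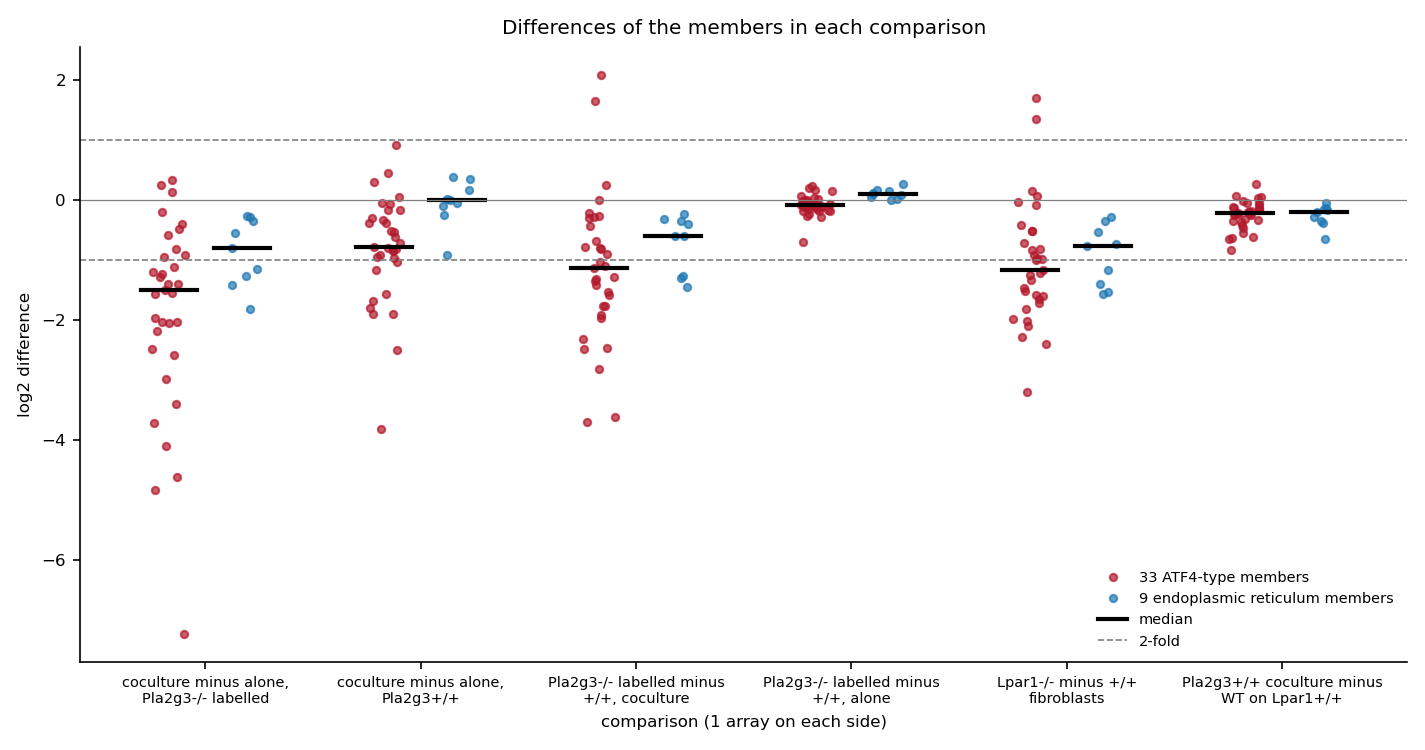
Log2 differences (vertical axis) of the 33 ATF4-type genes (red) and 9 endoplasmic reticulum genes (blue) in 6 comparisons, each of 1 array minus 1 array, with the median as a black bar and dashed lines at 2-fold. The ATF4-type median was -1.50 and -0.78 for coculture in Pla2g3-/- labelled and Pla2g3+/+ cells, -1.13 and -0.09 for Pla2g3 in coculture and alone, -1.17 for fibroblast Lpar1 and -0.21 between the wild-type cocultures.

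Among the stress regulators, the largest differences lay in Atf3, Chac1 and Trib3. Atf3, a transcription factor induced under stress (probe at chromosome 1, 192994547 to 192994606, mm9), read -4.79 in the Pla2g3-/- labelled coculture against -1.17 in the Pla2g3+/+ coculture, -3.55 on Lpar1-/- fibroblasts against -0.35 on Lpar1+/+ fibroblasts, and -1.07 in Pla2g3-/- labelled cells alone against -1.10 in Pla2g3+/+ cells alone. The Pla2g3-/- labelled coculture and the Lpar1-/- array were thus the low ones, and the 4 others lay between -1.17 and -0.35. Atf3 was 12.3-fold lower in the Pla2g3-/- labelled coculture and 9.19-fold lower on Lpar1-/- fibroblasts, but within 2-fold for coculture of Pla2g3+/+ cells, with a log2 difference of -0.07. The wild-type cocultures differed by 0.83 in Atf3, so the Pla2g3 value was -4.44 and the Lpar1 value -2.37 with the other wild-type array, and the coculture value of Pla2g3+/+ cells was 0.75. After normexp background correction the Pla2g3 value in coculture was -2.52.

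Chac1, which degrades glutathione (chromosome 2, 119179990 to 119180049), followed a stepwise order. It read -1.99 in the Pla2g3-/- labelled coculture against 0.48 in the Pla2g3+/+ coculture, -1.19 on Lpar1-/- fibroblasts against 0.82 on Lpar1+/+ fibroblasts, and 2.84 in Pla2g3-/- labelled cells alone against 2.98 in Pla2g3+/+ cells alone. Cells without fibroblasts were highest, the wild-type cocultures lay between, and the other cocultures were lowest. Chac1 was 28.5-fold lower with coculture in Pla2g3-/- labelled cells and 5.66-fold lower with coculture in Pla2g3+/+ cells, and it was 5.54-fold lower for the Pla2g3-/- label in coculture and 4.03-fold lower on Lpar1-/- fibroblasts. Trib3, a pseudokinase that binds ATF4 and the kinase AKT (chromosome 2, 152163161 to 152163220), had the same order of arrays. It read 0.68 in the Pla2g3-/- labelled coculture against 3.16 in the Pla2g3+/+ coculture, 1.51 on Lpar1-/- against 3.79 on Lpar1+/+ fibroblasts, and 4.78 in Pla2g3-/- labelled cells alone against 4.96 in Pla2g3+/+ cells alone. Trib3 was 5.58-fold lower for the Pla2g3-/- label in coculture and 4.84-fold lower on Lpar1-/- fibroblasts, and -3.11 and -1.65 on the log2 scale against the other wild-type coculture.

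The transcription factor genes Atf4 and Ddit3 changed less. Atf4 read 5.70 in the Pla2g3-/- labelled coculture against 6.60 in the Pla2g3+/+ coculture, 5.95 on Lpar1-/- against 6.92 on Lpar1+/+ fibroblasts, and 6.98 in Pla2g3-/- labelled cells alone against 7.21 in Pla2g3+/+ cells alone. Its log2 differences of -0.89 for Pla2g3 in coculture and -0.98 for Lpar1 were just within 2-fold. A second, dimmer Atf4 probe gave -1.76 and -1.41. The arrays measure messenger RNA, whereas ATF4 is controlled mostly in translation. Ddit3, which encodes the factor CHOP of prolonged stress, spanned 0.98 to 1.48 over the 6 arrays, with -0.43 for Pla2g3 in coculture and -0.42 for Lpar1. Sesn2, an inhibitor of the growth kinase complex mTORC1, spanned 0.89 to 1.73 and was lowest in the wild-type cocultures, with 0.26 for Pla2g3 in coculture and 0.07 for Lpar1.

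Ddit4, another inhibitor of mTORC1 (chromosome 10, 59412486 to 59412545), ran the other way. It read 5.86 in the Pla2g3-/- labelled coculture against 3.77 in the Pla2g3+/+ coculture, 5.42 on Lpar1-/- fibroblasts against 3.71 on Lpar1+/+ fibroblasts, and 5.52 in Pla2g3-/- labelled cells alone against 5.67 in Pla2g3+/+ cells alone. The wild-type cocultures were thus the low arrays, and the 4 others lay between 5.42 and 5.86. Ddit4 was 4.26-fold higher for the Pla2g3-/- label in coculture and 3.27-fold higher on Lpar1-/- fibroblasts, and it was 3.74-fold lower with coculture in Pla2g3+/+ cells. In Pla2g3-/- labelled cells the coculture difference was 0.34.

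**Figure D3:**
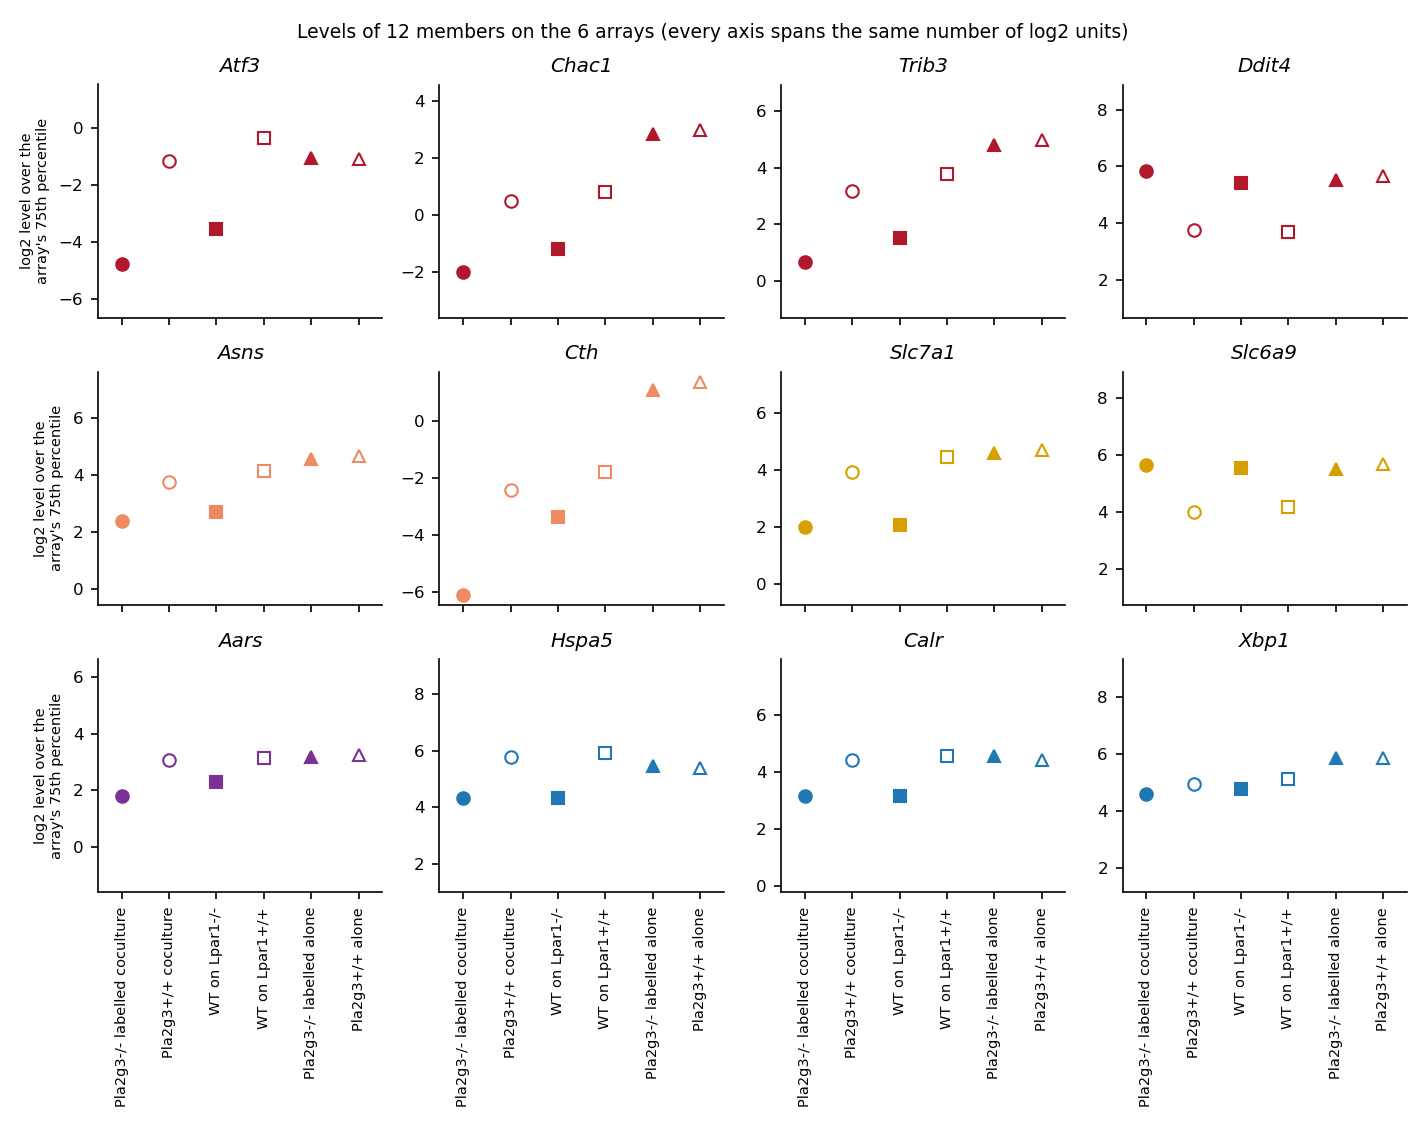
Level of 12 of the genes (log2 over the array's 75th percentile, vertical axes of equal span) on each of the 6 arrays, with filled symbols for the Pla2g3-/- label and Lpar1-/- fibroblasts, open symbols for their +/+ counterparts, circles and squares for cocultures and triangles for cells alone. In Atf3, Slc7a1, Hspa5 and Calr the wild-type cocultures lie near the cells alone, in Chac1 and Trib3 between, and in Ddit4 and Slc6a9 they are the low arrays.

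The amino acid and one-carbon enzymes were the role group with the lowest median in the Pla2g3 comparison in coculture, at -1.56, with 8 of 10 lower and 0 higher. On Lpar1-/- fibroblasts 8 of 10 were lower and 0 higher, with a median of -1.40. With coculture 9 of 10 were lower in Pla2g3-/- labelled cells and 4 of 10 in Pla2g3+/+ cells. Of all genes compared, 10.4%, 8.84%, 7.30% and 7.52% were lower in these comparisons in turn. Asparagine synthetase, Asns (chromosome 6, 7625169 to 7625228), read 2.39 in the Pla2g3-/- labelled coculture against 3.75 in the Pla2g3+/+ coculture, 2.69 on Lpar1-/- against 4.16 on Lpar1+/+ fibroblasts, and 4.58 in Pla2g3-/- labelled cells alone against 4.66 in Pla2g3+/+ cells alone. The Pla2g3-/- labelled and Lpar1-/- arrays in coculture were the lowest, 2.56-fold and 2.77-fold below their wild-type cocultures.

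The serine synthesis genes, which make serine from a glycolytic intermediate, moved together. Phgdh read 0.63 in the Pla2g3-/- labelled coculture against 2.40 in the Pla2g3+/+ coculture, 1.05 on Lpar1-/- against 2.76 on Lpar1+/+ fibroblasts, and 2.60 in Pla2g3-/- labelled cells alone against 2.69 in Pla2g3+/+ cells alone. The wild-type cocultures and the cells alone lay between 2.40 and 2.76. Phgdh was 3.40-fold lower for the Pla2g3-/- label in coculture and 3.27-fold lower on Lpar1-/- fibroblasts. Psat1 was 3.41-fold and 3.52-fold lower in the same comparisons, and Psph 2.14-fold and 2.38-fold. Second probes of Phgdh, Psat1 and Psph gave -1.86, -1.83 and -1.21 for Pla2g3 in coculture.

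Shmt2 and Mthfd2 act in mitochondrial one-carbon metabolism, which takes carbon units from serine. Mthfd2 read -0.62 in the Pla2g3-/- labelled coculture against 1.35 in the Pla2g3+/+ coculture, 0.34 on Lpar1-/- against 1.67 on Lpar1+/+ fibroblasts, and 2.36 in Pla2g3-/- labelled cells alone against 2.38 in Pla2g3+/+ cells alone. It was 3.92-fold lower for the Pla2g3-/- label in coculture and 2.51-fold lower on Lpar1-/- fibroblasts. Shmt2 was 2.04-fold and 2.33-fold lower. The proline synthesis genes differed from each other: Aldh18a1 was 2.24-fold lower with coculture in Pla2g3+/+ cells, but had log2 differences of -0.22 for Pla2g3 in coculture and -0.02 for Lpar1. Pycr1 was 7.06-fold and 4.27-fold lower in those comparisons by its brightest probe, whereas its dimmer probe, at -6.57 to -5.75, gave -0.50 and -0.64, and normexp gave -0.93 and -1.16.

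Cth, which cleaves cystathionine to cysteine (chromosome 3, 157557667 to 157557726), had the widest range of the 42 genes, 7.52 log2 units. It read -6.12 in the Pla2g3-/- labelled coculture against -2.41 in the Pla2g3+/+ coculture, -3.36 on Lpar1-/- against -1.76 on Lpar1+/+ fibroblasts, and 1.12 in Pla2g3-/- labelled cells alone against 1.40 in Pla2g3+/+ cells alone. All cocultures lay below both arrays without fibroblasts. Cth was 151-fold lower with coculture in Pla2g3-/- labelled cells and 14.1-fold lower with coculture in Pla2g3+/+ cells, and its second probe gave log2 differences of -6.95 and -3.66. It was 13.1-fold lower for the Pla2g3-/- label in coculture and 3.03-fold lower on Lpar1-/- fibroblasts, the widest gap between these comparisons among the 42 genes. After normexp the coculture value of Pla2g3-/- labelled cells was -5.27 and the Pla2g3 value -1.89, and against the Pla2g3+/+ coculture the Lpar1 value was -0.95, within 2-fold. Cbs, which makes cystathionine in the step before, spanned only -5.90 to -5.45 and was within 2-fold in each comparison. These levels were dim, which limits the size of a difference. With normexp its coculture value in Pla2g3+/+ cells was 0.02 in place of 0.45.

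Most transporters were lower with either genotype. In the Pla2g3 comparison in coculture 6 of 9 were lower and 1 higher (median -1.42), and on Lpar1-/- fibroblasts 6 were lower and 1 higher (median -1.52). Of all genes compared, 10.4% were lower and 9.10% higher for Pla2g3 in coculture, and 8.84% lower and 11.3% higher for Lpar1. Slc7a1, which carries arginine and lysine (chromosome 5, 149139957 to 149140016), read 2.00 in the Pla2g3-/- labelled coculture against 3.92 in the Pla2g3+/+ coculture, 2.06 on Lpar1-/- against 4.46 on Lpar1+/+ fibroblasts, and 4.58 in Pla2g3-/- labelled cells alone against 4.70 in Pla2g3+/+ cells alone. It was 3.79-fold lower for the Pla2g3-/- label in coculture and 5.29-fold lower on Lpar1-/- fibroblasts. Slc7a3, of the same substrates, was 2.98-fold and 3.95-fold lower, and already 3.73-fold lower with coculture in Pla2g3+/+ cells. After normexp its Pla2g3 value in coculture was -0.98, within 2-fold.

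Slc7a5, the light chain of the leucine carrier, was 2.49-fold and 2.87-fold lower, whereas its heavy chain Slc3a2 gave -0.79 and -0.96 on the log2 scale, within 2-fold. A second Slc7a5 probe gave -1.27 and -0.86, the Lpar1 value within 2-fold. Slc7a11, the light chain of the cystine carrier, was 4.99-fold and 3.15-fold lower, but its levels of -6.95 to -3.78 were dim, and after normexp the values were -0.62 and -0.74. The glutamine carrier Slc1a5 read 1.72 in the Pla2g3-/- labelled coculture against 3.25 in the Pla2g3+/+ coculture, 1.71 on Lpar1-/- against 3.29 on Lpar1+/+ fibroblasts, and 2.96 in Pla2g3-/- labelled cells alone against 2.95 in Pla2g3+/+ cells alone. It was thus 2.88-fold and 2.99-fold lower, whereas coculture of Pla2g3+/+ cells gave 0.30. The small neutral amino acid carrier Slc38a2 had the highest coculture difference of the 42 genes in Pla2g3+/+ cells, at 0.91, or 1.05 with the other wild-type array, and it was 2.67-fold lower for the Pla2g3-/- label and 2.25-fold lower on Lpar1-/- fibroblasts. Slc1a4, a carrier of alanine, serine and cysteine, gave -0.29 and -0.52.

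The glycine carrier Slc6a9 (chromosome 4, 117541842 to 117541901) ran against the other transporters. It read 5.63 in the Pla2g3-/- labelled coculture against 3.97 in the Pla2g3+/+ coculture, 5.52 on Lpar1-/- against 4.17 on Lpar1+/+ fibroblasts, and 5.49 in Pla2g3-/- labelled cells alone against 5.66 in Pla2g3+/+ cells alone. As for Ddit4, the wild-type cocultures were the low arrays and the other 4 lay close together. Slc6a9 was 3.14-fold higher for the Pla2g3-/- label in coculture and 2.55-fold higher on Lpar1-/- fibroblasts, and its second probe gave log2 differences of 1.51 and 1.46. With coculture it was 3.22-fold lower in Pla2g3+/+ cells and within 2-fold, at 0.14, in Pla2g3-/- labelled cells.

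The aminoacyl-tRNA synthetases, which load tRNAs with their amino acids, differed less than the enzymes and transporters. All 7 had a negative log2 difference for Pla2g3 in coculture, from -1.28 to -0.26, but only Aars and Sars were past 2-fold. On Lpar1-/- fibroblasts all 7 were negative, the highest at -0.08, and only Sars was past 2-fold, by 2.00-fold. Of all genes compared, 10.4% were lower for Pla2g3 in coculture and 8.84% for Lpar1, so the Lpar1 count of 1 lay near the share. With coculture 5 of 7 were lower in Pla2g3-/- labelled cells and 0 in Pla2g3+/+ cells, beside 7.30% and 7.52% of all genes. The alanyl-tRNA synthetase Aars read 1.79 in the Pla2g3-/- labelled coculture against 3.07 in the Pla2g3+/+ coculture, 2.30 on Lpar1-/- against 3.12 on Lpar1+/+ fibroblasts, and 3.19 in Pla2g3-/- labelled cells alone against 3.24 in Pla2g3+/+ cells alone. Mars, the methionine enzyme, and Wars, the tryptophan enzyme, had the smallest differences of the 7 for Pla2g3 in coculture, at -0.26 and -0.27. For Lpar1 a second Wars probe gave -1.02, past 2-fold, where the brightest gave -0.72. A second Aars probe was dim, above background on 2 of the 6 arrays. It gave -3.19 for Pla2g3 in coculture, -2.94 for Lpar1 and 1.02 for coculture of Pla2g3+/+ cells. With the mean of its probes Aars gave -2.24 for Pla2g3 in coculture and -1.88 for Lpar1.

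Of the endoplasmic reticulum genes, Hspa5, Calr and Sdf2l1 were lower in both genotype comparisons, and Dnajb9 was also lower on Lpar1-/- fibroblasts. With coculture of Pla2g3+/+ cells the 9 genes lay between -0.92 for Xbp1 and 0.39 for Hspa5, all within 2-fold. The chaperone Hspa5, or BiP (chromosome 2, 34631913 to 34631972), read 4.32 in the Pla2g3-/- labelled coculture against 5.78 in the Pla2g3+/+ coculture, 4.33 on Lpar1-/- fibroblasts against 5.90 on Lpar1+/+ fibroblasts, and 5.47 in Pla2g3-/- labelled cells alone against 5.38 in Pla2g3+/+ cells alone. The Pla2g3-/- labelled and Lpar1-/- cocultures stood more than 1 log2 unit below the 4 other arrays. Hspa5 was 2.74-fold lower for the Pla2g3-/- label in coculture and 2.97-fold lower on Lpar1-/- fibroblasts. With coculture it was 2.22-fold lower in Pla2g3-/- labelled cells and 0.39 higher on the log2 scale, within 2-fold, in Pla2g3+/+ cells.

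Calreticulin, Calr (chromosome 8, 87366192 to 87366251), which holds calcium and folds glycoproteins, read 3.16 in the Pla2g3-/- labelled coculture against 4.42 in the Pla2g3+/+ coculture, 3.17 on Lpar1-/- against 4.56 on Lpar1+/+ fibroblasts, and 4.57 in Pla2g3-/- labelled cells alone against 4.41 in Pla2g3+/+ cells alone. It was 2.40-fold and 2.63-fold lower in the Pla2g3-/- labelled and Lpar1-/- cocultures. Sdf2l1, a partner of Hspa5, was 2.46-fold and 2.90-fold lower, and Dnajb9, a co-chaperone, gave -0.60 and -1.17. Dnajb9 differed by -0.64 between the wild-type cocultures, and with the other array its values were -1.25 and -0.52. A second, dimmer Dnajb9 probe gave -1.14 and -1.68. Hsp90b1, or GRP94, gave -0.60 and -0.76, Herpud1 and Edem1 of the degradation pathway -0.39 and -0.73 and -0.31 and -0.28, and the disulfide isomerase Pdia4 -0.24 and -0.53, all within 2-fold.

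Xbp1, the transcription factor of the IRE1 branch, had another order of arrays. It read 4.60 in the Pla2g3-/- labelled coculture against 4.94 in the Pla2g3+/+ coculture, 4.78 on Lpar1-/- against 5.13 on Lpar1+/+ fibroblasts, and 5.87 in Pla2g3-/- labelled cells alone against 5.86 in Pla2g3+/+ cells alone. The 4 cocultures lay together below both arrays of cells alone. The difference for coculture was -0.92 in Pla2g3+/+ cells and -1.27 in Pla2g3-/- labelled cells, and for genotype -0.34 in the mast cell and -0.35 in the fibroblast. The array does not tell spliced from unspliced Xbp1.

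Set side by side, the median difference of the ATF4-type genes lay below that of the endoplasmic reticulum genes in every comparison. The gap between the medians was -0.79 for coculture of Pla2g3+/+ cells, -0.71 for coculture of Pla2g3-/- labelled cells, -0.53 for Pla2g3 in coculture and -0.40 for Lpar1, against -0.02 between the wild-type cocultures. Without fibroblasts the gap for the Pla2g3-/- label was -0.19. In the genotype comparisons the groups overlapped: Hspa5, Calr and Sdf2l1, at -1.46 to -1.26 for Pla2g3 in coculture, lay below the ATF4-type median of -1.13. The aminoacyl-tRNA synthetases, with a median of -0.81 for Lpar1, lay near the endoplasmic reticulum median of -0.76. For Pla2g3 in coculture these medians were -0.79 and -0.60. Among further genes of these pathways, given below, the order was reversed for Lpar1. Other ATF4 targets had a median of -0.72 there, and other endoplasmic reticulum genes -0.75. For Pla2g3 in coculture the order was kept, at -0.94 and -0.55.

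The Pla2g3 comparison in coculture and the Lpar1 comparison share no array, though all 4 arrays lay on the same slide. All 42 genes had the same sign in both, beside 82.0% of the 20754 genes above background on those arrays. Past 2-fold in the same direction were 23 of the 42, of which 21 were lower and 2 higher. Of the 20754 genes 3009 were, with 1384 lower and 1625 higher. Over the 42 genes the differences had a Pearson correlation of 0.92 and a Spearman correlation of 0.95, and over the 20754 genes 0.86 and 0.83. These correlations run across genes, which are not independent replicates. The median gap between the paired differences was 0.20, and Cth, at -3.71 and -1.60, lay farthest off.

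**Figure D4:**
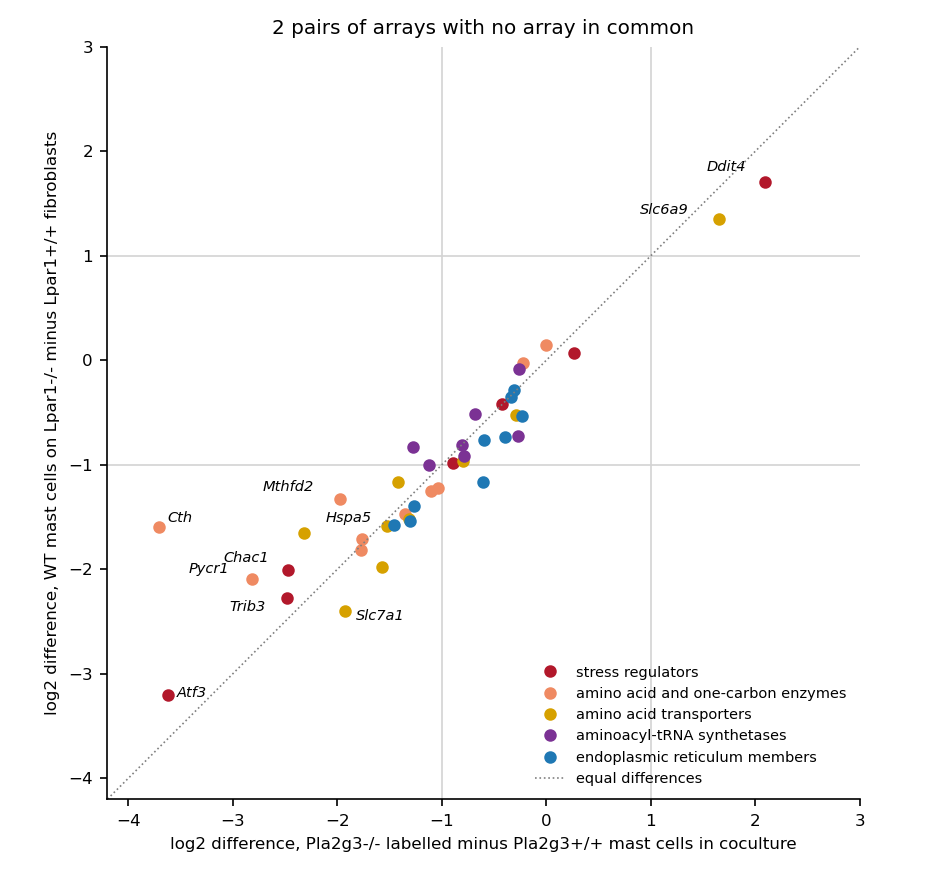
Log2 difference of each of the 42 genes for the Pla2g3-/- label in coculture (horizontal axis) and for Lpar1-/- fibroblasts (vertical axis), coloured by role, with grey lines at 2-fold and a dotted line of equal differences. The points run along the dotted line with a Pearson correlation of 0.92, Ddit4 and Slc6a9 lie at the upper right, and Cth lies farthest from the line.

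Other genes of these pathways were listed apart from the 42. Their counts stand beside the shares of all genes given above, 10.4% lower and 9.10% higher for Pla2g3 in coculture and 8.84% lower and 11.3% higher for Lpar1. Of 17 other ATF4 targets, 8 were lower and 1 higher for Pla2g3 in coculture (median -0.94), and 7 were lower and 1 higher for Lpar1 (median -0.72). The lowest was Aldh1l2, a mitochondrial folate enzyme, at -3.55 and -3.10, and the higher one was Slc7a6, a partner of Slc3a2, at 2.87 and 2.72. Slc7a6 read -0.31 in the Pla2g3-/- labelled coculture against -3.18 in the Pla2g3+/+ coculture, -0.45 on Lpar1-/- against -3.18 on Lpar1+/+ fibroblasts, and -0.72 in Pla2g3-/- labelled cells alone against -0.53 in Pla2g3+/+ cells alone, the order seen in Ddit4 and Slc6a9. Of 12 other aminoacyl-tRNA synthetases, 1 was lower for Pla2g3 in coculture (median -0.34) and 0 for Lpar1 (median -0.53), with 0 higher in either, so the Pla2g3 count lay near the share of all genes.

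Of 20 other endoplasmic reticulum genes, 3 were lower and 0 higher for Pla2g3 in coculture (median -0.55), and 5 were lower and 1 higher for Lpar1 (median -0.75). P4hb, a protein disulfide isomerase, was the lowest for Pla2g3 at -1.11, and Manf, a secreted stress protein, the lowest for Lpar1 at -1.38, whereas the coat protein gene Sec24d read 0.77 and 1.15. The 12 sensors and eIF2alpha regulators had medians of 0.08 and -0.13, with members in both directions. Among them 0 were past 2-fold for Pla2g3 in coculture and 1 was lower for Lpar1, the phosphatase subunit gene Ppp1r15b, which gave -0.82 for Pla2g3 in coculture. Eif2s1, which encodes eIF2alpha itself, gave -0.77 and -0.79, and Ern1, which encodes IRE1, gave 0.08 and -0.60. Of 8 targets of NRF2, the factor of the oxidative stress response, 3 were higher and 0 lower in both comparisons. The highest were Gclm, of glutathione synthesis, at 2.03 and 2.53, and Nqo1, a quinone reductase, at 2.02 and 2.51. Of 9 cytosolic and mitochondrial heat shock genes, 1 was higher and 1 lower for Pla2g3 in coculture and 2 were lower for Lpar1, with medians of -0.41 and -0.64. Counts of 1 among 9 heat shock genes and of 3 lower among 20 endoplasmic reticulum genes lie near the shares of all genes and are not a result about those lists.

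Markers of other cells moved with some of these comparisons, and their part in the results was not tested. The summed linear signal of 12 fibroblast markers was 13.1 times the 75th percentile in the Pla2g3-/- labelled coculture against 28.7 in the Pla2g3+/+ coculture, 24.9 on Lpar1-/- against 29.6 on Lpar1+/+ fibroblasts, and 0.131 in Pla2g3-/- labelled cells alone against 0.154 in Pla2g3+/+ cells alone. Of these markers 10, 10, 11 and 10 were above background in the cocultures in that order, with Lum not above background on any array, and 5 of 12 in each array of cells alone. By gene, 7 of the 10 fibroblast markers compared were lower and 0 higher for Pla2g3 in coculture (median -1.28). For Lpar1 1 of the 11 compared was lower and 2 were higher, Postn and Pdgfrb (median -0.49). The shares of all genes in each comparison are given above. The summed signal of 6 cell cycle markers, all above background everywhere, was 11.2 in the Pla2g3-/- labelled coculture against 54.1 in the Pla2g3+/+ coculture, 6.18 on Lpar1-/- against 52.8 on Lpar1+/+ fibroblasts, and 23.0 in Pla2g3-/- labelled cells alone against 20.2 in Pla2g3+/+ cells alone. By gene, all 6 cell cycle markers were lower for Pla2g3 in coculture and all 6 for Lpar1. With coculture all 6 were higher in Pla2g3+/+ cells, whereas 3 were lower and 0 higher in Pla2g3-/- labelled cells. The 7 macrophage markers summed to 3.08 against 10.3 in the same Pla2g3 comparison in coculture and 2.00 against 10.0 for Lpar1, and 2.57 against 3.35 without fibroblasts. Most of the sum in the wild-type cocultures came from Cd68, at levels of 3.13 and 3.12. By gene, 5 of the 7 were lower and 0 higher for Pla2g3 in coculture (median -1.89). For Lpar1 3 were lower and 0 higher (median -0.77), and without fibroblasts 3 were lower and 0 higher (median -0.72). The 10 neutrophil and eosinophil markers summed to 1.86 against 4.17, 13.3 against 4.51, and 2.59 against 41.8, and Epx and Ear2 were not above background in any coculture. Most of the sum of 41.8 came from S100a9 and S100a8, at levels of 4.65 and 3.15. By gene, 3 of the 8 compared were lower and 0 higher for Pla2g3 in coculture (median -0.60). For Lpar1 7 of the 8 compared were higher and 0 lower (median 1.95), the other direction. Without fibroblasts 9 of 10 were lower and 0 higher (median -4.34).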

How the data were processed

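RNA of 6 groups was hybridised to single-colour Agilent arrays, 1 array a group. The authors obtained the intensity of each spot from Agilent Feature Extraction 12.1.1.1, per the submitters' processing notes and the file headers, with background subtraction and a surrogate for dim spots. The above-background, saturation and outlier marks were used as deposited. In the deposited value table the signal is linear and equal to the processed intensity over 1 constant an array, so its scale and direction were settled and no centring was found. Its column medians were 0.0448 and 0.0439 for the Pla2g3-/- and Pla2g3+/+ cocultures, 0.0483 and 0.0428 for Lpar1-/- and Lpar1+/+ fibroblasts, while the arrays without fibroblasts gave 0.0338 (Pla2g3-/-) and 0.0357 (Pla2g3+/+).

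The level is log2 of the processed intensity, less that of the 75th percentile over 43020 noncontrol spots. Outlier spots (84 to 115 an array) were left out, no spot was saturated, and spots of 1 probe were averaged. Names came from RefSeq accessions for 33002 spots, from symbols for 3072 and synonyms for 16, and 6930 kept the file's name. Of 29590 genes, 7563 had several probes, and the brightest by its mean over all arrays was used. Coordinates of probes are on mm9, as deposited, and no annotation of that build was used here.

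A gene was compared where at least 1 array was well above background, and a side not above background was raised to the array's lowest signal above background. With 1 array per group there is no p-value, and precision is limited by the number of arrays. The scanner's error model gave a median error of 0.20 log2 units for a difference of the 42 genes, which covers the spot and not the culture. All 42 genes could be named, and up to 3 highest and 3 lowest of each further list. The 42 genes, the lists and the comparisons were chosen with earlier results of these data known. The comparison code was tested on simulated data. Python 3.11.15, pandas 2.3.3, R 4.3.3 and limma 3.58.1 (normexp with an offset of 50, and quantile normalization, as alternatives) were used.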

Additional observations from a re-analysis of the deposited data

How the results depend on the processing

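Counts and medians of the ATF4-type and endoplasmic reticulum genes were recomputed with normexp background correction, quantile normalization, another scaling constant, the mean of a gene's probes, stricter and no filters on dim probes, the deposited value table and the other wild-type coculture array. No 2-fold difference reversed, and the only median that changed sign was that of the endoplasmic reticulum genes for coculture of Pla2g3+/+ cells, which lay near 0 (0.0073) and was -0.0062 with quantile normalization and -0.0026 with another scaling constant. Only use of the other wild-type coculture moved any of them by more than 0.26 in a median or 1.5 times in a count: for coculture of Pla2g3+/+ cells 1 ATF4-type gene was higher in place of 0 (Slc38a2) and the ATF4-type median was -0.48 in place of -0.78, and the endoplasmic reticulum median of the difference of coculture effects was -0.94 in place of -0.63. The number of lower ATF4-type genes ranged over the alternatives from 15 to 21 for Pla2g3 in coculture, 14 to 21 for Lpar1, 22 to 24 and 6 to 10 for coculture of Pla2g3-/- labelled and Pla2g3+/+ cells. Genes past 2-fold that lost it under some alternative were Pycr1, Shmt2, Slc7a11 and Slc7a3 for Pla2g3 in coculture (4 of 24), Cth, Dnajb9, Psph, Sars, Shmt2, Slc38a2 and Slc7a11 for Lpar1 (7 of 24), Slc7a11 for coculture of Pla2g3-/- labelled cells (1 of 27), and Aldh18a1, Mthfd2 and Pycr1 for coculture of Pla2g3+/+ cells (3 of 9). The cause was not tested. Normexp moved the median of all genes by -0.15 for coculture of Pla2g3+/+ cells and by 0.16 for Pla2g3 in coculture, and quantile normalization by -0.10 and -0.13 for coculture of Pla2g3-/- labelled and Pla2g3+/+ cells. With quantile normalization 2200 of all genes were higher and 2201 lower with coculture of Pla2g3+/+ cells, in place of 2948 and 1700, 1910 and 1838 with coculture of Pla2g3-/- labelled cells, in place of 2547 and 1631, and 174 and 145 in the Pla2g3+/+ coculture against the other wild-type coculture, in place of 40 and 193. No paired analysis was possible because each group had 1 array. Slide as a block could not be fitted and no replicate could be left out, for the same reason. Dim signals, such as those of Cbs, Cth, Pycr1 and Slc7a11 in coculture, limit the size of their differences.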
